A study of Homo sapiens with 6 samples.

Results

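The regions described here are consecutive 5 Mb bins of chromosomes 1 to 22, each summarised by the median change in expression of the genes that start in it. A gene was kept where it was protein-coding, mapped to an autosome and had a mean of at least 5 CPM (counts scaled to a library of fixed size) over the control libraries, and a bin was kept where it held at least 5 such genes. Of 568 autosomal bins that held a mapped gene, 498 were kept and 54 held 1 to 4 kept genes. The 498 bins held 10087 of the 10222 kept genes, out of 18417 mapped autosomal protein-coding genes. The members were chosen by control level and gene number alone, without the difference between the groups. Such a filter keeps genes lost in the other group and leaves out genes low in the controls and raised there. It can therefore tilt the kept genes toward lower values. At the edge of the rule, 15 bins held exactly 5 kept genes and 11 bins were left out with exactly 4.

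Poly(A)-selected RNA was sequenced from HEK-293T, a human embryonic kidney line immortalised with adenoviral genes and expressing the large T antigen of SV40. There were 3 libraries labelled wild type (WT), from cells given a non-targeting guide RNA, and 3 labelled C17orf80 knockout, from cells given a guide against C17orf80. The culture medium was DMEM with 10% serum throughout, and the knockout line was made with CRISPR/Cas9 and put through puromycin selection for monoclonal cells. The number of clones, and whether replicates were separate cultures, are not given in the labels. A p-value here therefore reflects how far these particular libraries scatter, which may be technical, and an effect of the guide and a property of a clone cannot be told apart. Below, KO1, KO2 and KO3 stand for the libraries labelled knockout, replicates 1 to 3. The transcript of the targeted gene was higher in each of them than in each WT library, so that "labelled knockout" is kept as the name of the group and the direction of every difference rests on that label.

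HEK-293T cells carry an abnormal karyotype, and single clones of such lines can differ from each other in the copy number of whole chromosomes or of parts of them. The RNA of a gene tends to follow its copy number, so that genes along a gained or lost stretch can move together, whereas regulation by a transcription factor usually changes scattered genes. Expression bins read such stretches only through RNA: copy number itself was not measured in these data. In bulk RNA, a change in all cells and a change in a fraction of the cells cannot be told apart. C17orf80 (current symbol MTNAP1), whose protein is found at the nucleoids that package mitochondrial DNA, lies on the long arm of chromosome 17.

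Promoter sequence gives the context of the genes that stand for the 3 bins the results turn on. It is printed for C17orf80 itself and for the gene nearest to its bin's median change, among genes with a listed outer start, in the highest and in the lowest called bin. Each stretch is the 250 bases before the annotated start in RefSeq (GRCh38.p14), on the plus strand, written 5′ to 3′ with every CpG in capitals. C17orf80 is at chr17:73232183-73232432, TRAPPC11, which encodes a subunit of a vesicle-tethering complex, at chr4:183659043-183659292 and TRABD at chr22:50185663-50185912.
C17orf80: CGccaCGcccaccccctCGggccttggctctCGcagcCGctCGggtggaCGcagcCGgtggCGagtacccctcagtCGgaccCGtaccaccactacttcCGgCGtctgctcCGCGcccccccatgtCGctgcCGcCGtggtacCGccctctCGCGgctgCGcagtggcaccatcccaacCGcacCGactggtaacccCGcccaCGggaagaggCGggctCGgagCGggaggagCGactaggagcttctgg
TRAPPC11: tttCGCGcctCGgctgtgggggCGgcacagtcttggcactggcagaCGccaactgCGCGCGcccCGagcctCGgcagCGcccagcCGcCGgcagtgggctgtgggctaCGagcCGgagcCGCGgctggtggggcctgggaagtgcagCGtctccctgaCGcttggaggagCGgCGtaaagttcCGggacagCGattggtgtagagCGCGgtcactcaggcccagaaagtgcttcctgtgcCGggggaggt
TRABD: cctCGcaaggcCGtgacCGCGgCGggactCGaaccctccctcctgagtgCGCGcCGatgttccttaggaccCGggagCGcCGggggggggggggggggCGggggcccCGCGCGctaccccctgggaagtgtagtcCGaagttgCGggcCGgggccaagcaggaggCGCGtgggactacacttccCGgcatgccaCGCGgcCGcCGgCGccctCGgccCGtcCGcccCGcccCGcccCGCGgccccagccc
They hold 30, 26 and 34 CpG, respectively. The same letters were found in 96.9% of 14704 promoters of that length, with a median of 18 per promoter. Promoters of kept genes had a median GC content of 64.8% in bins called higher, 66.8% in bins called lower and 65.6% in bins not called, by the calls given below. The median number of CpG was 22, 23 and 22. Over the 498 bins, Pearson's r of a library's bin value with the bin's median promoter GC was -0.25 in KO1, -0.027 in KO2 and -0.12 in KO3, and -0.20 to 0.19 in WT. A promoter was listed for 82.9% of kept genes.

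The 3 WT libraries gave nearly flat profiles. Each library's bin value is the median over its kept genes of log2(CPM + 1), minus the gene's mean over the WT libraries, and a fold change on this scale understates the change of genes near the minimum level. Against the other WT libraries, the standard deviation (SD) over the 498 bins was 0.0349, 0.0369 and 0.0368 in WT replicates 1 to 3. It was 0.598 in KO1, 0.293 in KO2 and 0.310 in KO3. Neighbouring bins resembled each other in the libraries labelled knockout and not in WT: over 459 pairs of neighbours, which share a library and its depth, Pearson's r was 0.59, 0.80 and 0.77 in KO1, KO2 and KO3 and -0.0052 to 0.11 in WT.

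KO1 stood apart from the other libraries labelled knockout. Its bin values rose with the median span of the genes in a bin (r = 0.65 over 498 bins, against 0.11 in KO2 and 0.26 in KO3) and fell with the number of genes in it (r = -0.60, -0.11 and -0.27). Reads in no annotated feature made up 15.9% of its reads and 8.75% to 10.8% of the reads in the other libraries, and its TMM scaling factor was 0.851, against 1.03 to 1.04. Gene counts ranged only from 14982340 to 16278091 per library. KO1 had another sign than both KO2 and KO3 in 102 bins. With each library set against a separate WT library, the bin profiles of KO2 and KO3 had an r of 0.93, and KO1 had an r of 0.55 with KO2 and 0.72 with KO3. Values without KO1 are therefore given beside those of the named bins, segments, arms and genes. The cell line's own markers were present in all libraries, at a summed 849 to 895 CPM over 12 lineage genes in WT and 833 to 867 CPM in the libraries labelled knockout, except LHX1, which was under 1 CPM in each. That sum holds members that lay apart in both directions: the neurofilament gene NEFL was at 189 to 200 CPM in WT and 61.0 to 85.4 CPM in the libraries labelled knockout and EYA1 at 17.2 to 21.4 and 5.83 to 8.36 CPM, whereas the cadherin gene CDH2 was at 36.5 to 39.7 and 80.4 to 111 CPM and the kidney gene WT1 at 4.40 to 6.37 and 16.1 to 17.5 CPM. Markers of squamous epithelium, liver and endothelium stayed under 1 CPM in every library, with PTPRC, CD3E, KRT5 and CDH5 at 0 counts. The 5 fibroblast markers summed to 44.0 to 49.1 CPM in WT and 25.7 to 33.8 CPM in the libraries labelled knockout, mostly COL1A1, and the 6 blood markers to 4.59 to 5.66 and 2.07 to 5.83 CPM. The part of such markers in the bin values was not tested.

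**Figure D1:**
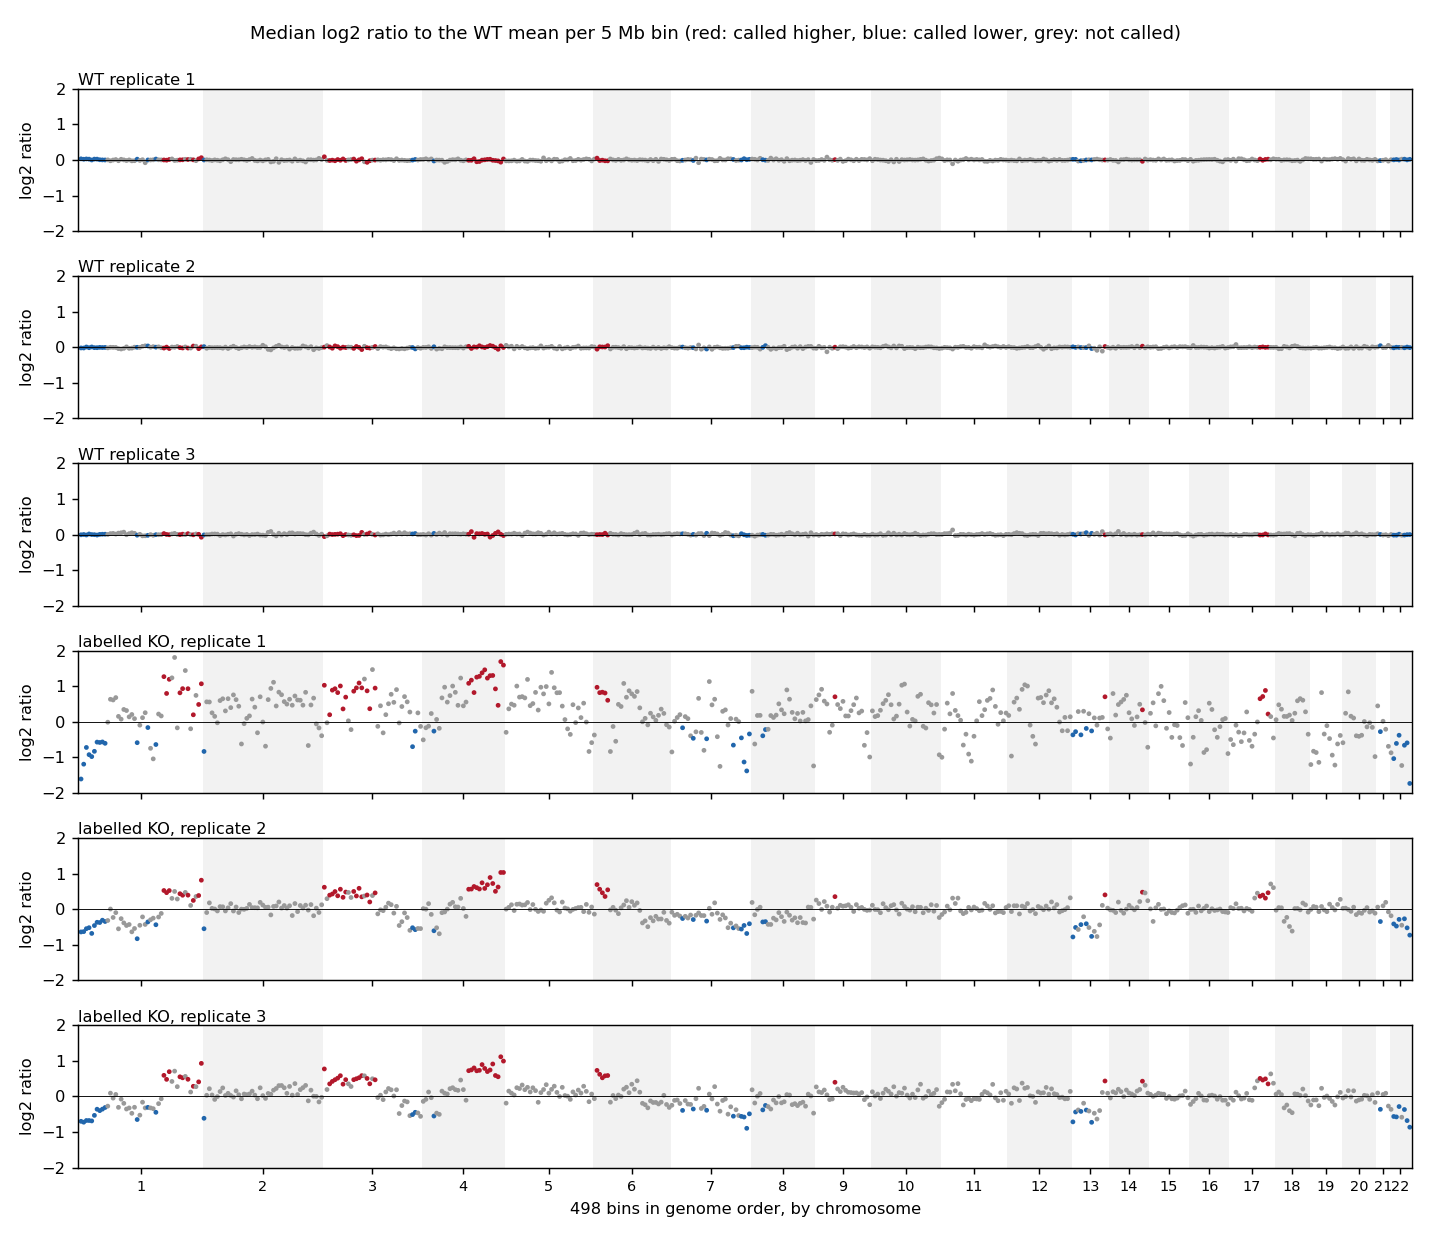
Median log2 ratio to the WT mean (vertical axis) of each of the 498 bins in genome order (horizontal axis, chromosomes alternately shaded), 1 panel per library, with called bins coloured. The WT panels are flat, KO2 and KO3 show the same raised and lowered stretches, and KO1 has the widest scatter, with an SD of 0.598 over bins.

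Stretches of chromosomes 1, 3, 4, 6 and 17 were higher in the libraries labelled knockout and stretches of 1, 7 and 22 were lower. Tested with limma on bin values with Benjamini-Hochberg adjustment over all kept bins, 50 bins were higher and 39 were lower at an adjusted p under 0.05. These are 10% and 7.83% of the bins tested, and 17.9% in either direction. Some arms held bins called both ways: 1q 9 higher and 2 lower, 3q 3 and 2, and 13q 1 and 5. In 180 bins each library labelled knockout lay above each WT library (36.1% of bins), and in 97 bins below (19.5%). In 84 of the 89 called bins over 75% of kept genes moved with the bin. The calls were made on the medians of these same genes, so this count describes the called bins and does not support them.

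When libraries were left out, the directions held and many of the calls did not. Without KO1, 158 bins were higher (31.7%) and 136 were lower (27.3%), and these included all 50 and all 39 bins called over 6 libraries. Without WT replicate 1, 2 or 3, limma called 10, 0 and 8 bins, with 98, 103 and 101 bins at an unadjusted p under 0.05. Without KO2 it called 102 bins and without KO3 it called 40. All 89 called bins kept their direction whichever library was left out, with values between 0.676 and 1.3 times that over all libraries. These bins were picked with the same libraries, so their kept direction describes them and is no further support. With both KO1 and a WT library left out, a setting chosen after seeing the data, 237 to 253 bins were called. Nearest to the threshold, the bin of 22q at 40 to 45 Mb was the last called (limma adjusted p = 0.0485), and its neighbour at 35 to 40 Mb, with a larger difference of -0.75, was the first not called (limma adjusted p = 0.0558).

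The 6 highest called bins all lay on 4q, and in the top pair every kept gene was higher. In the bin at 180 to 185 Mb the values were 1.69 in KO1, 1.03 in KO2 and 1.11 in KO3, and the difference from WT was 1.28 over 12 genes (limma adjusted p = 0.00795, 1.09 without KO1). In the bin at 185 to 190 Mb they were 1.59, 1.03 and 0.99, with a difference of 1.21 over 7 genes (limma adjusted p = 0.00865, 1.02 without KO1). The bins at 135 to 140, 140 to 145, 150 to 155 and 155 to 160 Mb had differences of 0.94 to 0.99, or 0.69 to 0.83 without KO1.

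WWC2, a scaffold protein of the Hippo pathway, was at 20.6, 22.6 and 22.4 CPM in WT replicates 1 to 3 and at 84.7, 62.9 and 58.7 CPM in KO1, KO2 and KO3. Its log2 fold change was 1.65 ± 0.18 (SE, edgeR adjusted p = 0.00215). ACSL1, which activates long-chain fatty acids, stood nearest to the median of its bin at 180 Mb, at 21.9, 24.9 and 26.2 CPM in WT against 76.8, 55.5 and 54.6 CPM in KO1, KO2 and KO3. It rose by 1.36 ± 0.18 (SE, edgeR adjusted p = 0.00476), and its groups did not overlap. CFAP97, named for cilia and flagella, rose most in the bin at 185 Mb, from 24.1, 24.7 and 22.2 CPM to 158, 73.6 and 80.5 CPM. UFSP2, the protease that matures the ubiquitin-like modifier UFM1, was at 4.94 to 5.88 CPM in WT and at 15.4 to 20.6 CPM in the libraries labelled knockout. Both passed edgeR, with log2 fold changes of 2.13 and 1.68.

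The other genes described on 4q rose by log2 fold changes from 0.91 to 2.33. CLGN, an endoplasmic reticulum chaperone best known from testis, rose from 8.32, 8.20 and 9.01 CPM to 54.1, 31.9 and 42.1 CPM (log2 fold change 2.33 ± 0.22, SE). SETD7, a lysine methyltransferase, rose from 57.1 to 64.9 CPM in WT to 169 to 285 CPM. The doublecortin-like kinase gene DCLK2, the trafficking gene LRBA and the growth factor gene PDGFC rose by 1.84, 1.48 and 1.53 on the log2 scale. ELF2, TMEM144, GAB1 and RPS3A, the genes nearest to the median of their bins, rose by 1.03, 1.03, 1.0 and 0.91, with edgeR adjusted p from 0.0110 to 0.0391. RPS3A encodes a ribosomal protein with many processed copies in the genome, so its count is uncertain. KO1 was the highest of the libraries labelled knockout in all of these except DCLK2. Over all named bins, 53 genes were picked by rule, and each of the 46 that passed edgeR had the same call without KO1, with log2 fold changes between 0.634 (LRBA) and 1.21 (TRIM47) times those over all libraries. Of the other 7, edgeR called 5 without KO1. The genes were picked with the same libraries, so the kept calls are no further support.

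The 6 lowest called bins were the last of 22q, 3 on 1p and 2 on 7q. The end of 22q, from 50 Mb on, was at -1.73 in KO1, -0.73 in KO2 and -0.86 in KO3, and the difference was -1.11 over 16 genes (limma adjusted p = 0.0288, -0.79 without KO1). None of its 16 kept genes was higher. In it PLXNB2, a receptor for semaphorins, was at 351, 332 and 343 CPM in WT against 127, 198 and 181 CPM in KO1, KO2 and KO3 (log2 fold change -1.02 ± 0.19, SE, edgeR adjusted p = 0.0138). MAPK8IP2, a scaffold of JNK signalling, fell by 1.57. ADM2, a peptide hormone gene of the calcitonin family, was at 16.6, 14.97 and 16.3 CPM in WT and at 0, 0.0607 and 0.0601 CPM in KO1, KO2 and KO3, a far larger difference than that of its neighbours.

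On 1p the first bin, 0 to 5 Mb, was at -1.60 in KO1, -0.64 in KO2 and -0.70 in KO3 (difference -0.98 over 48 genes, limma adjusted p = 0.0414, -0.66 without KO1). All 48 kept genes were lower, and 24 of them passed edgeR, where 7.88% of all kept genes passed as lower. GABRD, a GABA receptor subunit gene, was at 6.05, 7.19 and 8.21 CPM in WT and at 1.11, 1.94 and 1.38 CPM in the libraries labelled knockout. MXRA8, a cell adhesion gene, was at 26.5 to 29.0 CPM in WT and at 2.14, 11.05 and 7.51 CPM. Both fell by edgeR, whereas ISG15, an interferon-induced ubiquitin-like protein gene near the median of the bin, did not pass (log2 fold change -0.94 ± 0.64, SE, edgeR adjusted p = 0.341). In the next bin KCNAB2, a potassium channel subunit gene, fell from 28.7, 32.6 and 28.6 CPM to 5.03, 5.89 and 5.35 CPM, with close values in the 3 libraries labelled knockout. In the bin at 20 to 25 Mb CDA, cytidine deaminase, fell by 3.13, and ZBTB40, near the median, by 0.80.

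On 7q the bin at 150 to 155 Mb had a difference of -0.98 over 23 genes (limma adjusted p = 0.0122, -0.78 without KO1). Its values were -1.38, -0.68 and -0.89 in KO1, KO2 and KO3. FASTK, of a family of mitochondrial RNA-binding proteins, was at 150, 135 and 147 CPM in WT and at 21.4, 65.6 and 60.1 CPM (log2 fold change -1.55 ± 0.38, SE, edgeR adjusted p = 0.0365). ACTR3B, a gene of the actin-related protein family, fell by 1.04. PDIA4, a protein disulfide isomerase gene in the bin at 145 to 150 Mb, was at 501, 481 and 481 CPM in WT and at 125, 226 and 221 CPM, and fell by 1.35, whereas ZNF282, near the median of that bin, had a log2 fold change of -0.68 and did not pass (edgeR adjusted p = 0.108). The homeobox gene GBX1 and the zinc finger gene ZNF467 fell by 2.03 and 1.76.

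Called bins lay in runs. A segment was counted where at least 3 neighbouring kept bins of 1 arm were called in the same direction, and 10 segments (6 higher, 4 lower) took up 57 of the 89 called bins and 1157 kept genes. The longest ran over 14 kept bins of 4q, from 105 to 190 Mb, where 145 of 146 kept genes were higher and 102 passed edgeR as higher. Of all kept genes 46.9% were higher, and 7.76% passed edgeR as higher. The segment was drawn from the medians of these same genes, so its counts describe it and do not support it. The median of its kept genes was at 1.21, 0.67 and 0.79 in KO1, KO2 and KO3 and between -0.010 and 0.012 in the WT libraries. Its median bin had a difference of 0.86, a 1.82-fold change, and one of 0.69 without KO1.

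The longest lower segment was the first 50 Mb of 1p. It held 10 bins and 403 kept genes, of which 35 were higher, and 143 passed edgeR as lower, against 7.88% of all kept genes. These counts too describe the segment, which was drawn from the same genes. The median of its kept genes was at -0.84, -0.47 and -0.53 in KO1, KO2 and KO3. Its median bin had a difference of -0.63 (-0.54 without KO1). Toward the centromere KO1 left the other libraries: at 70 to 75 Mb it was at 0.15 against -0.55 and -0.31 in KO2 and KO3, and at 85 to 90 Mb at 0.32 against -0.46 and -0.35. Without KO1 these bins too were lower by limma, with differences of -0.41 and -0.39.

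The other higher segments had median bins with differences between 0.51 and 0.79. They were 1q at 175 to 190 Mb (0.79, 39 genes), 3p at 10 to 45 Mb (0.56, 114 genes) and at 55 to 75 Mb (0.62, 42 genes), 6p at 5 to 30 Mb (0.61, 72 genes) and 17q at 55 to 75 Mb (0.51, 99 genes). On 6p 70 of the 72 kept genes were higher, and their median was close in KO1, KO2 and KO3, at 0.74, 0.54 and 0.58. The other lower segments were 7q at 140 to 160 Mb (-0.63, 65 genes) and 22q at 20 to 35 Mb (-0.55, 91 genes) and from 40 Mb to the end (-0.60, 86 genes). Without KO1 the median bins of these 8 segments lay at 0.43 to 0.57 in the higher and at -0.47 to -0.59 in the lower ones, and limma called every bin of all 10 segments in the same direction. With any 1 WT library left out 0 segments remained called, and without KO3 there were 2, while without KO1 there were 29.

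**Figure D2:**
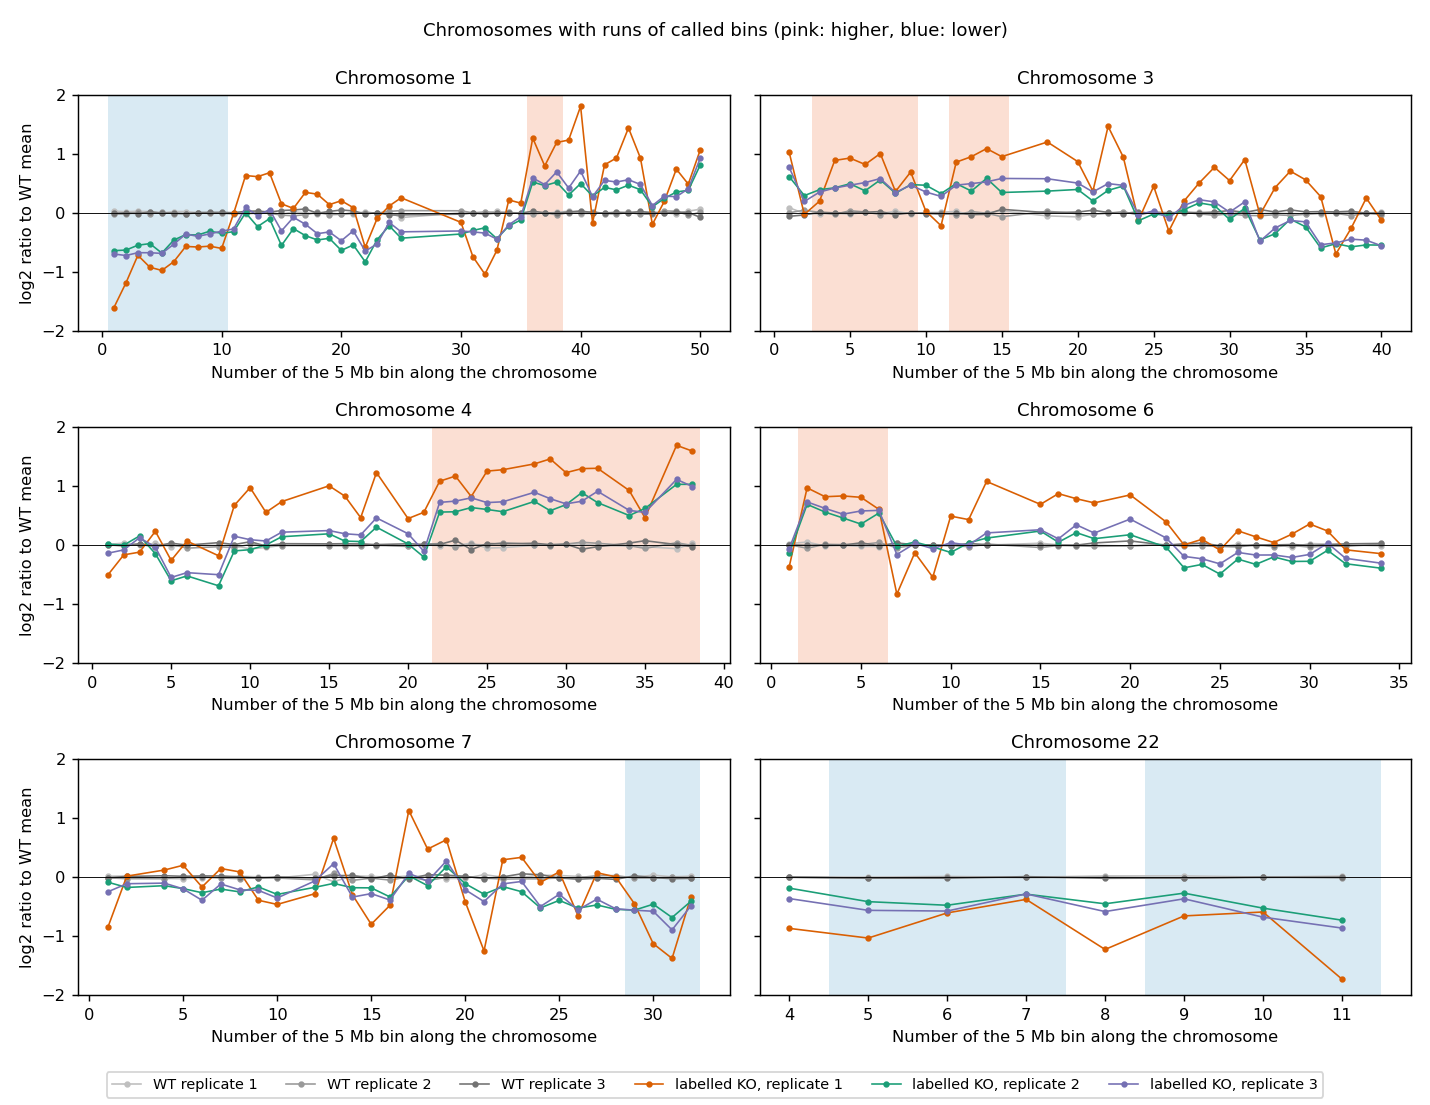
Bin values (vertical axis, median log2 ratio to the WT mean) along the 6 other chromosomes that hold a segment (horizontal axis, bin number), 1 line per library, with segments shaded. On chromosome 4 all 3 libraries labelled knockout step up at the start of the shaded stretch, and the WT lines stay near 0. The median over the kept genes of that stretch is 1.21, 0.67 and 0.79 in KO1, KO2 and KO3.

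Where the steps lay was described by splitting the kept genes of an arm once, in gene order, at the place with the smallest summed deviation from the medians of both sides. These splits carry no test. On 4q the split fell between BDH2 and CENPE at 103 Mb in KO1, between CXXC4 and TET2 (104 and 105 Mb) in KO2, and between TET2 and PPA2 (both at 105 Mb) in KO3. TET2 encodes a DNA demethylation enzyme and CENPE a kinesin of the centromere. The median gene went from 0.064 before to 0.67 after the split in KO2, from 0.20 to 0.79 in KO3 and from 0.70 to 1.23 in KO1. The height of the step was thus similar in the 3 libraries, while KO1 was already high before it.

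On 6p the split fell in the same place in all 3 libraries, after ZSCAN23 (start at 28421400) and before CCHCR1 (start at 31142439). The median gene went from 0.61 to -0.33 in KO1, from 0.45 to -0.010 in KO2 and from 0.50 to -0.022 in KO3. No kept gene lies between them. Of 64 protein-coding genes mapped there 0 were kept and 59 had under 10 counts in each library, TUBB, a tubulin gene used by most cells, among them with 1 to 8 counts. Counts in that stretch, which holds part of the major histocompatibility complex, can therefore not be read as expression in any of the libraries, and the place of the step within it was not resolved. On 1q the split was between MRPS14 and KIAA0040 (175 Mb) in KO2, and in KO1 at 162 Mb. On 22q the splits lay close together near the end of the arm, after ALG12 in KO1 and after ZBED4, the gene before it, in KO3 (both at 49.9 Mb), and after TUBGCP6 at 50.2 Mb in KO2. On 1p KO2 and KO3 split near each other, at 27.4 and 27.7 Mb, and KO1 at 45.7 Mb. The libraries split farther apart on 7q, at 149 Mb in KO1, 113 to 114 Mb in KO2 and 122 to 124 Mb in KO3, and on 3p, at 53.8 Mb in KO1, 10.1 Mb in KO2 and 55.5 to 56.6 Mb in KO3.

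Of whole arms with at least 20 kept genes, 3 were higher and 5 lower of 39 tested with limma (7.69% and 12.8%, 20.5% in either direction). 4q was the highest arm, at 1.02, 0.45 and 0.60 in KO1, KO2 and KO3 (difference 0.69, limma adjusted p = 0.0307, 0.53 without KO1), with 92.8% of its 264 kept genes higher. 22q was the lowest, at -0.87, -0.40 and -0.52 (difference -0.59, limma adjusted p = 0.0307, -0.45 without KO1), with 31 of 265 kept genes higher. 6p (0.17), 7p (-0.15) and 4p (-0.11) were also called, with small differences that were 0.16, -0.17 and -0.12 without KO1 and still called. On 6p 5 of 12 bins were called, all within its segment, and 59.1% of kept genes were higher. The median of all kept genes was itself at -0.042, -0.023 and -0.031 in KO1, KO2 and KO3. With libraries centred on their median gene, or with the level filter over all libraries, 3 lower arms were called in place of 5. Which arms were lost is not reported here.

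For 3 arms the libraries labelled knockout gave almost the same median over the arm. 3p was at 0.41 in KO1, 0.42 in KO2 and 0.40 in KO3 (difference 0.41, limma adjusted p = 0.000141), 1p at -0.50, -0.45 and -0.43 (-0.46, limma adjusted p = 0.000191) and 7q at -0.31, -0.31 and -0.34 (-0.32, limma adjusted p = 0.000249). The WT libraries lay between -0.011 and 0.0088 on these arms, and without KO1 the differences were 0.42, -0.43 and -0.32. On 4q and 22q, by contrast, KO1 lay farthest from WT. The agreement on 3p, 1p and 7q holds for the arm median and not along the arm. On 3p the median gene went, at each library's own split, from 0.18 to 1.03 in KO1. It went from 0.31 to 0.43 in KO2 and from 0.38 to 0.53 in KO3. On 1p it went from -0.86 to 0.12 in KO1, from -0.60 to -0.35 in KO2 and from -0.68 to -0.31 in KO3. On 7q it went from -0.22 to -1.145 in KO1, from -0.17 to -0.54 in KO2 and from -0.21 to -0.56 in KO3.

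13q was at -0.41 in KO2 and -0.37 in KO3 and at -0.08 in KO1. As an arm it was not called (difference -0.28, limma adjusted p = 0.109), while 5 of its 14 bins were called lower and 1 higher. The arm was lower without KO1 (-0.38, limma adjusted p = 8.58e-06). 19p was at -1.04 in KO1, -0.0017 in KO2 and -0.17 in KO3, so its mean of -0.41 came mainly from KO1 (limma adjusted p = 0.316, -0.08 without KO1). 16p, 17p and 19q had the same form, with KO1 at -0.75, -0.45 and -0.73 and the other pair between -0.12 and 0.079. Without KO1, 21 arms were called, and with a WT library left out 3 to 5 were.

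**Figure D3:**
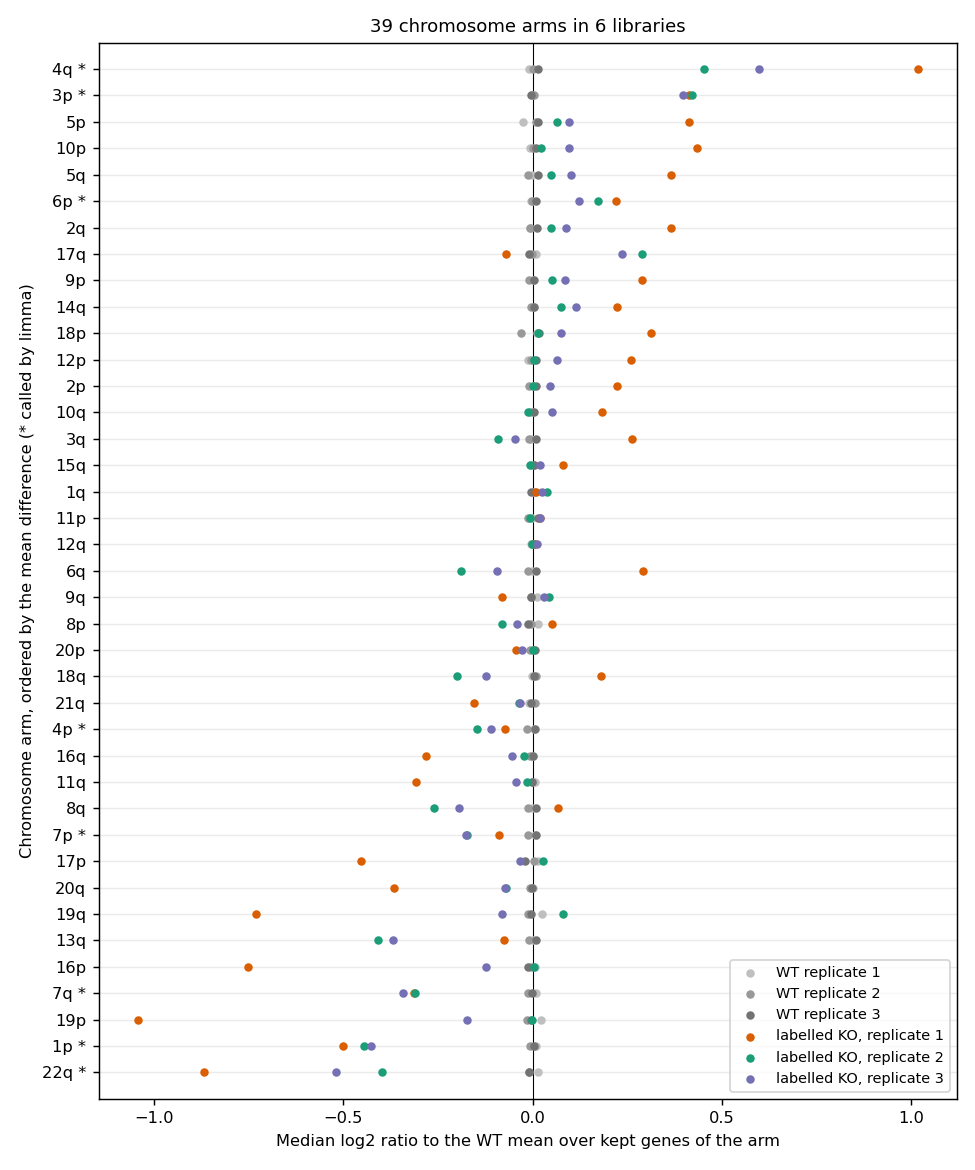
Median log2 ratio to the WT mean over the kept genes of each of 39 chromosome arms (horizontal axis), arms ordered by their mean difference (vertical axis), 1 point per library, with called arms starred. The 3 points of the libraries labelled knockout almost coincide on 3p (0.41, 0.42 and 0.40) and are far apart on 19p, where KO1 is at -1.04.

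Chromosome 17, which carries C17orf80, stepped up within its long arm in all 3 libraries labelled knockout, from different levels. From the start of the chromosome to 45 Mb the bins of KO2 lay between -0.061 and 0.15 and those of KO3 between -0.11 and 0.12. From 45 Mb to the end they lay between 0.31 and 0.71 in KO2 and between 0.24 and 0.63 in KO3. KO1 was between -0.69 and 0.28 before 45 Mb, at -0.35 at 45 to 50 Mb, at 0.65, 0.71 and 0.88 from 55 to 70 Mb, and at -0.45 in the last bin. The split of 17q was between FMNL1 and MAP3K14 (45.2 and 45.3 Mb) in KO3 and between SPATA20 and ANKRD40 (50.5 and 50.7 Mb) in KO1. The median gene went from -0.44 before the split to 0.21 after it in KO1, from -0.028 to 0.48 in KO2 and from -0.061 to 0.45 in KO3. The arm as a whole was at -0.07, 0.29 and 0.24 and did not pass (difference 0.15, limma adjusted p = 0.316). It was higher without KO1, by 0.27 (limma adjusted p = 4.57e-05), and with trends on gene span and level removed, by 0.25 (limma adjusted p = 0.0201).

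The bin of C17orf80, at 70 to 75 Mb, was among the called bins, with one of the smaller differences. It stood at 0.022, 0.0018 and -0.0090 in WT replicates 1 to 3 and at 0.22, 0.46 and 0.35 in KO1, KO2 and KO3, without overlap. The difference was 0.34 over 18 genes, of which 13 were higher (limma adjusted p = 0.0297, 0.41 without KO1). The exact permutation test of this bin gave a two-sided p of 0.1, the smallest that 3 against 3 libraries allow. The call was lost without any 1 WT library and without KO3 (limma adjusted p = 0.101 to 0.206), under 6 other settings, and with the replicate number as a block (limma adjusted p = 0.0761).

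C17orf80 itself (ENSG00000141219, chromosome 17, 73232433 to 73248959) was at 25.8, 26.8 and 29.2 CPM in WT and at 56.4, 42.4 and 42.0 CPM in KO1, KO2 and KO3. Its log2 fold change of 0.78 ± 0.17 (SE, edgeR adjusted p = 0.0232) was the fourth highest of the 18 genes of its bin, whose median was 0.36. Relative to the bin's own value, C17orf80 was higher by 0.81 in KO1, by 0.16 in KO2 and by 0.25 in KO3. In KO2 and KO3 most of its rise was therefore shared with the bin, and in KO1 it was not.

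Of the 8 nearest kept genes, the pair just before C17orf80 rose with it. FAM104A was at 17.8, 20.5 and 19.1 CPM in WT and at 37.1, 29.9 and 31.7 CPM (log2 fold change 0.78 ± 0.15, SE, edgeR adjusted p = 0.0173). COG1, a subunit of a Golgi tethering complex, was at 29.0, 28.0 and 26.2 CPM in WT and at 43.7, 39.4 and 46.0 CPM (0.63 ± 0.14, SE, edgeR adjusted p = 0.0242). The annotated spans of COG1 and FAM104A overlap, and that of FAM104A ends at 73232394, next to the start of C17orf80. The counts are not stated to use strand, and ambiguous reads were set aside. Reads at these ends may thus be left out or fall to the neighbouring gene. SSTR2, a somatostatin receptor gene, the zinc transporter gene SLC39A11, CDC42EP4, SDK2 and RPL38 had log2 fold changes between 0.20 and 0.80 and TTYH2 one of -0.40, and none of these passed edgeR, although without KO1 it called SLC39A11, CDC42EP4, SDK2 and RPL38 higher. C17orf80 then rose by 0.64, FAM104A by 0.69 and COG1 by 0.63. RPL38, like RPS3A, has processed copies elsewhere.

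In the named bins around C17orf80, most of the called genes described rose with their bin and MRC2 and WIPI1 fell. PSMD12, a proteasome subunit gene, rose from 69.6, 59.8 and 66.7 CPM to 204, 120 and 132 CPM (log2 fold change 1.22 ± 0.22, SE). BCAS3 and TEX2 rose by 0.86 and 0.85, HID1 by 1.43 and the scaffold gene NHERF1 by 1.03. LGALS3BP, a secreted galectin-binding glycoprotein gene, rose by 2.64, and NPTX1, a neuronal pentraxin gene, was at 9.23, 7.84 and 9.44 CPM in WT and at 218, 257 and 236 CPM in KO1, KO2 and KO3, a log2 fold change of 4.74 that dwarfs the value of its bin. Against their bins, the collagen receptor gene MRC2 fell from 110, 109 and 108 CPM to 14.2, 33.4 and 26.0 CPM, and the autophagy gene WIPI1 fell by 1.10. PRKAR1A, DCAF7 and UNK, near their bins' medians, were at 0.59, 0.55 and 0.51 and did not pass edgeR (adjusted p = 0.0591 to 0.0768), but were higher without KO1, by 0.42, 0.40 and 0.65. The bins at 75 to 80 Mb and 80 to 85 Mb were not called, at 0.50 and 0.17 (limma adjusted p = 0.1 and 0.618). KO1 was at 0.15 and -0.45 in them, and both were higher without it, by 0.68 and 0.51.

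**Figure D4:**
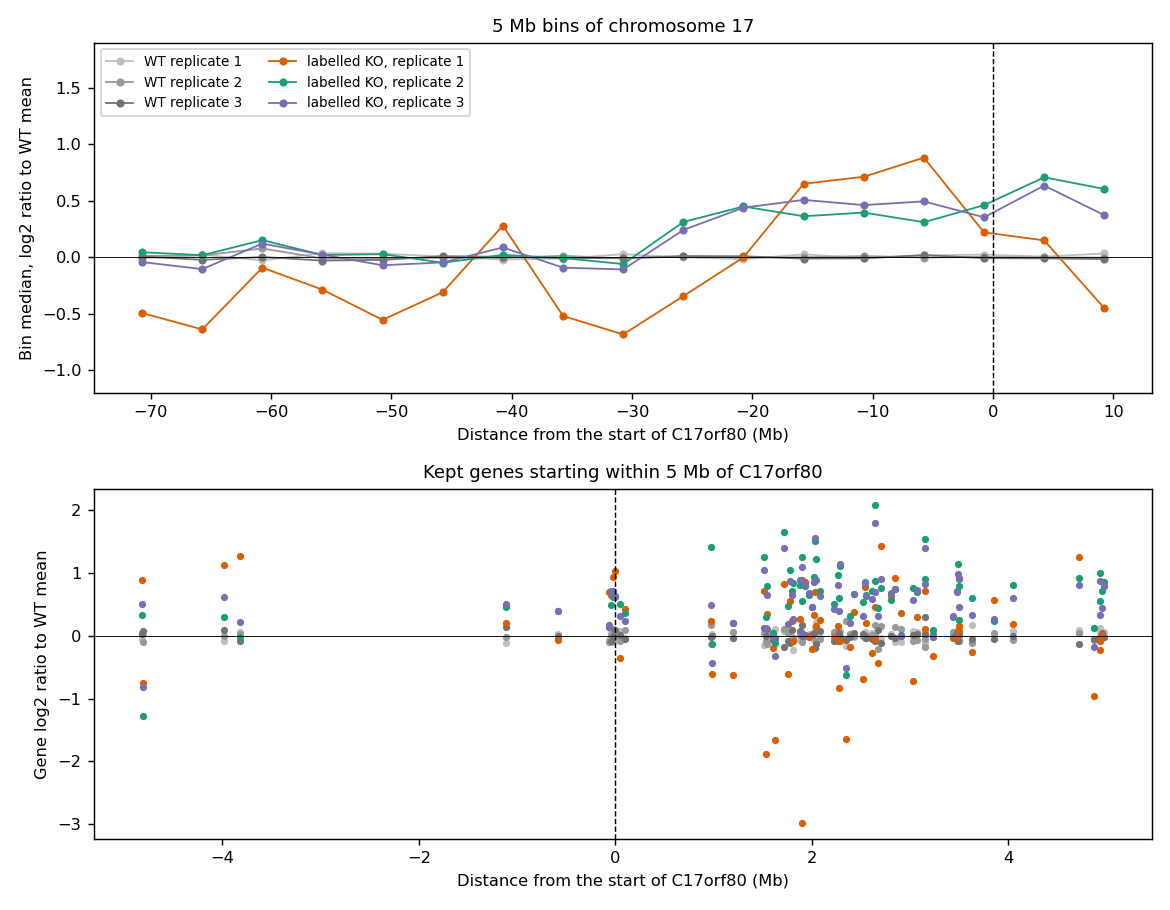
Upper panel: bin values on chromosome 17 (vertical axis, median log2 ratio to the WT mean) against distance from the start of C17orf80 (horizontal axis, Mb), 1 line per library. Lower panel: log2 ratio of each kept gene that starts within 5 Mb of C17orf80. KO2 and KO3 stay near 0 over the left part of the chromosome and at 0.24 or above over the right part, whereas KO1 crosses 0 several times.

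In 12 bins KO2 and KO3 shared a direction that KO1 did not once trends on gene span and level were removed from it. They were picked after their values were seen, as bins where KO2 and KO3 had 1 sign and a mean beyond 0.3 and where KO1 had the other sign after that removal. As measured, KO1 had the other sign in 9 of them and the same sign in 3, the bins of 1p at 110 to 115 Mb (-0.092), 7q at 115 to 120 Mb (-0.088) and 13q at 35 to 40 Mb (-0.36, against -0.43 and -0.42 in KO2 and KO3), where its detrended value was between 0.019 and 0.090. In 11 of them, on 1p, 3q, 7q, 8q and 13q, KO2 and KO3 were below WT and KO1 lay between -0.36 and 0.43, and the remaining bin was the last of 17q. The values were taken from the libraries that picked them and carry no test. With the span and level trends removed from every library, 130 bins were called over all libraries, 72 higher and 58 lower. The part of these trends in the results was not tested beyond that setting.

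The called bins held a large share of the genes that changed singly. By edgeR 793 of the 10222 kept genes were higher (7.76%) and 806 lower (7.88%), against 8.64% and 6.5% of all 17452 genes tested. In bins called higher 294 of 689 kept genes were higher (42.7%) and 7 lower, and in bins called lower 309 of 991 were lower (31.2%) and 9 higher. In bins not called, 5.55% were higher and 5.75% lower. Without KO1, with the same bins, 569 of the 689 were higher (82.6%) and 760 of the 991 lower (76.7%), against 23.2% and 25.6% in bins not called. Of all kept genes called higher 37.1% lay in bins called higher, and of those called lower 38.3% lay in bins called lower. These genes make up the bin medians, so the counts describe the bins and do not support them.

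Genes that the rule left out moved with the bins around them. Protein-coding genes with a WT mean of 1 to 5 CPM were higher in 95 of 120 cases inside bins called higher, with medians of 0.62, 0.54 and 0.60 in KO1, KO2 and KO3. Inside bins called lower 29 of 154 were higher, with medians of -0.67, -0.33 and -0.39, and inside other bins 673 of 1406 were. Long noncoding RNAs with a WT mean of at least 1 CPM gave 45 of 64 higher in bins called higher and 12 of 105 in bins called lower, against 279 of 701 elsewhere. These genes come from the same libraries as the kept genes, and some overlap a kept gene, where reads may be left out as ambiguous or fall to the other gene.

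**Figure D5:**
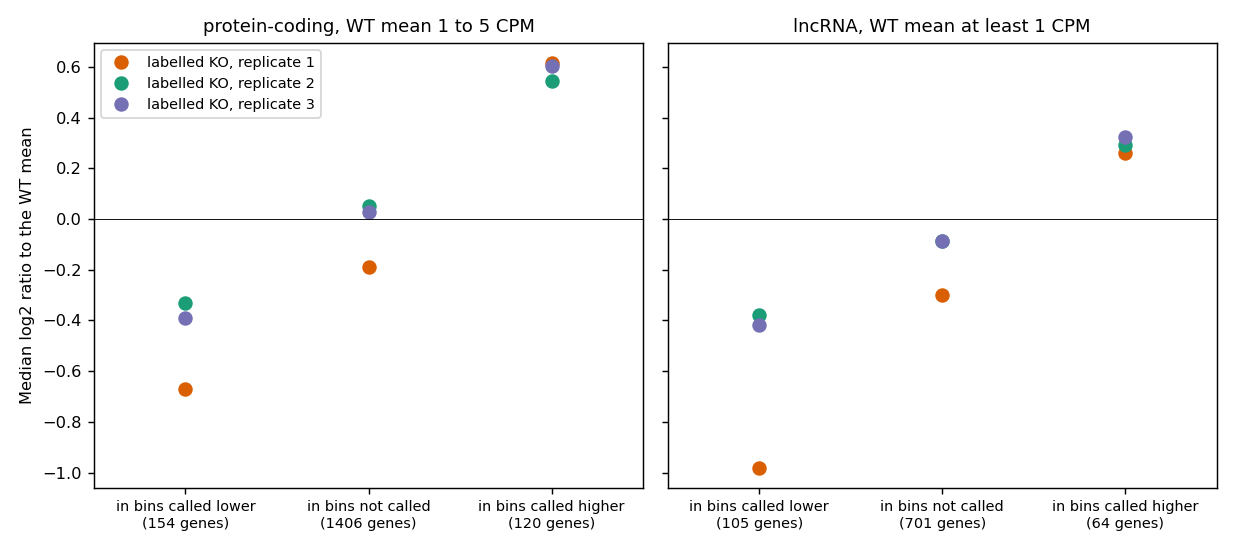
Median log2 ratio to the WT mean (vertical axis) of genes that did not enter the bin values, by the call of the bin they lie in (horizontal axis), for low protein-coding genes (left) and long noncoding RNAs (right), 1 point per library labelled knockout. In both kinds the medians go from below 0 in bins called lower to above 0 in bins called higher, at 0.62, 0.54 and 0.60 for the low protein-coding genes.

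Families whose genes lie side by side can set the median of a bin and were described with it. The zinc finger genes of chromosome 19, a large family of DNA-binding repressors, had 60 called higher by edgeR, 1 lower and 85 not called of 146 kept, with a median log2 fold change of 0.72. Of all kept genes 7.76% were higher and 7.88% lower, with a median of -0.018, and the counts of the smaller families below are to be read beside these shares too. Without KO1 93 zinc finger genes were higher and 5 lower, with a median of 0.49, where 25.4% of all kept genes were higher and 29% lower. Plain or DESeq2 scaling left the median above 0 (0.62 and 0.73). The arms 19p and 19q, neither of them called, had differences of -0.41 and -0.25 over all libraries, and of -0.080 and 0.00017 without KO1. ZNF551 was at 6.38 ± 1.0 CPM in WT against 46.5 ± 4.99 CPM in the group labelled knockout (SD, n = 3), and ZFP82 at 5.72 ± 0.428 and 0.0405 ± 0.0701 CPM. Most of the family was thus not called over all libraries, and the negative values of its arms came mainly from KO1. Of the HOX clusters, which pattern the body axis, HOXA had 2 lower of 9 kept, HOXB 0 called of 9 by edgeR (1 lower at an unadjusted p under 0.05), HOXC 1 higher and 1 lower of 7 and HOXD 1 lower of 5. HOXD13 was at 108 ± 0.782 CPM in WT against 69.9 ± 3.25 CPM in the group labelled knockout (SD, n = 3). Of the butyrophilins on 6p, which act in T cell recognition, 2 were higher of 5 kept, BTN3A3 by 0.70, inside a higher segment. A single kept histone gene, H2BC12, rose by 1.18 in the same segment, and a single kept clustered protocadherin, PCDHGC3, by 1.92. TRIM genes of 11p had 1 lower of 7, keratins, metallothioneins and HLA genes had 0 called by edgeR of 3, 1 and 4 (at an unadjusted p under 0.05, 3 HLA genes were lower and 0 of the others passed), and no UGT1A gene was kept.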

How the data were processed

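The deposited gene tables hold whole-number read counts per gene and library, not normalised, for 62348 identifiers in 6 libraries. The submitters' processing notes list HISAT2 2.2.1 and HTSeq 0.12.4 with the GRCh38 build, and also bedtools 2.30.0, SAMtools 1.3.1, FastQC 0.11.9 and DESeq2. The counting options and the use of strand are not given in the sources used here. Reads in no feature (8.75% to 15.9%) and ambiguous reads (9.74% to 12.5%) stayed out of library sizes. Gene counts ranged from 14982340 to 16278091 per library, and counting error is part of the spread between libraries. The deposited mitochondrial coverage was not used here.

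Ensembl identifiers were matched through their symbols and synonyms to RefSeq positions (GRCh38.p14). Of 11445 identifiers with a WT mean of at least 5 CPM, 11221 (98.0%) matched. Arms were split at approximate centromere positions from general knowledge. CPM used TMM library sizes from edgeR 4.0.16 in R 4.3.3. Bin and arm medians were tested with limma 3.58.1, for bins with a trend on log2 gene number. Genes were tested with the edgeR quasi-likelihood test over 17452 genes. Adjustment was by Benjamini-Hochberg at 0.05, with group as the only term. The SE of a log2 fold change was derived from the fold change and its F statistic. No libraries were duplicates by a chi-square comparison of counts. Tested on simulated data with the WT dispersions, the fit of 3 against 3 libraries over 17184 genes recovered 100% of 111 genes changed 2-fold and 100% of 89 changed 4-fold, and all 24 shifted bins with 0 false bins. The simulation held no library like KO1, so these rates may not carry over.

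Named bins are that of C17orf80, the nearest 2 kept bins on each side, and the 6 highest and 6 lowest called bins without overlap. Named genes are C17orf80 and its 4 nearest kept genes on each side, in a named bin the 2 called genes with the largest change along it, the 1 against it and the gene nearest its median, and the called member of a family with the largest change each way. The members and lists were chosen with earlier results of these data known. Alternatives were other scalings, pseudocounts, level filters, bin sizes, a trimmed mean, removal of gene span and level trends (loess), a replicate block, DESeq2 1.42.0 and each library left out. Some single values are not reported here.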

Additional observations from a re-analysis of the deposited data

How the results depend on the processing

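Leaving out 1 library at a time moved the counts most. The called bins ranged from 0 to 294, segments from 0 to 29, arms from 3 to 21 and genes by edgeR from 644 to 7975 of those tested. The lowest counts came without a WT library and the highest without KO1. The C17orf80 bin ranged from 0.29 to 0.41, or up to 0.42 with KO1 and a WT library left out together. In that pair of omissions, chosen after seeing the data, 237 to 253 bins, 23 to 28 segments and 15 to 17 arms were called, against 89, 10 and 8 over all libraries. The bin of 17q at 80 to 85 Mb, not called at 0.17, was -0.040 without KO2 and 0.51 without KO1.

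Without scaling beyond library size, 5 arms were called (1 higher, 4 lower, against 3 and 5), and with libraries centred on their median gene 3 and 3. With a mean of 5 CPM over all libraries as the level filter, 3 arms were higher and 3 lower, and 52 bins were higher and 39 lower. Plain library sizes gave 130 called bins (67 higher, 63 lower, against 50 and 39). The C17orf80 bin lost its call with plain library sizes (0.25), a WT mean of 1 CPM (0.31), no filter on level (0.17), bins shifted by 2.5 Mb (0.48), bins of 10 Mb (0.48) and a trimmed mean (0.31). Bins of 10 Mb gave 44 called bins and 5 segments from 279 bins. The cause of these changes was not tested.

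With the replicate number as a block, 60 bins, 7 segments, 3 arms and 969 genes were called, and the C17orf80 bin stayed at 0.34 without a call. The deviations of same-numbered libraries had an r of -0.17, -0.077 and -0.013 over bins, and those of other pairs one of -0.14 to 0.16. With 3 libraries per group these values cannot decide whether the numbers pair the libraries. Of 320 values of the named bins under other settings, 1 reversed in sign, the one given above, 56 lost their call, 3 gained one and 260 kept their direction and their side of the threshold. Without replicates of known origin, with 3 libraries per group and with RNA as the only readout, a shift in a bin is limited to the libraries measured, and GC content of whole genes was not tested.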

Other observations

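Bins of the X chromosome lay outside the rule and were measured in the same way. Of 389 kept genes there, 205 were higher in the libraries labelled knockout, and the median gene was at 0.069 in KO1, 0.026 in KO2 and 0.040 in KO3, against -0.015 to 0.0066 in WT. Of the 23 bins 0 were called by limma, 4 had an unadjusted p under 0.05 and, counted by overlap, 9 bins lay above and 3 below all WT libraries. These counts are to be read beside the autosomal background, where 180 of 498 bins lay above (36.1%) and 97 below (19.5%).

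Among autosomal bins, all 3 libraries labelled knockout were above 0 in 194 and below 0 in 115 of 498, and KO2 and KO3 had the same sign in 411.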
